A study of Homo sapiens with 38 samples.

Results

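Messenger RNA levels of 10 genes that drive the mechanical steps of cell division were followed in the colorectal cancer cell line RKO, which is of human origin, under 3 inhibitors of the histone demethylase LSD1 at 2 treatment times. The genes comprised 7 kinesin motors (KIF11, KIF14, KIF20A, KIF20B, KIF23, KIF2C and KIF4A) and 3 cytokinesis genes (ANLN, ECT2 and PRC1). They were taken from the table by symbol, as a group chosen with earlier results of these data known, and each of the 10 symbols was found once among 25594 entries of the deposited gene table. RNA was sequenced from cells given 2 µM NCD38, NCD38-β2P4 or NCD38-β2PIPP, or the vehicle DMSO alone, and collected on day 30 or day 4, and all cultures, controls included, contained 0.1% DMSO. A medium refresh every 5 days is given for all libraries, so that the first refresh would fall after day 4. The study added compound again at each refresh and passaged cells when needed. NCD38 is a small-molecule LSD1 inhibitor, and the other 2 compounds carry it on a pyrrole-imidazole polyamide, a ligand designed to bind the minor groove of DNA at A/T-rich sites for NCD38-β2P4 and at sites with a central CG for NCD38-β2PIPP. The labels give 2 µM as the dose on both days, whereas the methods of the study give the day 4 dose in mM, so the doses of the 2 days may not be matched. Each of the 8 conditions was 1 library, so no ratio between 2 libraries has a replicate check.

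Kinesins are motors that walk along microtubules or take them apart by using ATP. In mitosis they separate the spindle poles, move and correct the attachment of chromosomes, and build the central spindle, a bundle of antiparallel microtubules that tells the cortex where to place the contractile ring. Messenger RNAs for this machinery are characteristically made late in the cell cycle, in G2 and mitosis, from promoters with a cell cycle genes homology region (CHR) and CCAAT boxes, which are bound by the DREAM and MuvB complexes and by NF-Y. In bulk RNA a lower level can mean fewer cells in these phases or less messenger per cell, and these cannot be told apart here.

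The depth of each library, estimated from the smallest steps of the values, was 12400000 to 22600000 fragments. The values were FPKM, that is, fragments scaled to transcript length and library size, so levels of different genes can be set side by side per length. Of the 10 genes, 8 had a mean of at least 1 FPKM and entered the model together with 10865 expressed genes in all. KIF14 (mean 0.709 FPKM) and KIF20B (mean 0.954 FPKM) fell below this minimum and are given by their values. None of the 10 was at 0 in any library. The epithelial keratin KRT18 was at 76.2 to 121 FPKM, KRT19 and CDH1 were below 0.5 FPKM, and the summed fibroblast and endothelial markers stayed at or below 0.027 FPKM in every library. PTPRC and CD3E, which define leukocytes and T cells, were at 0 in all libraries. CD68, a lysosomal gene of the leukocyte list, was at 201 to 763 FPKM, and the leukocyte sum was 201 to 251 on day 30 and 633 to 763 on day 4.

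The promoters are shown first, because all 10 genes were higher with NCD38 on day 30. RefSeq windows on GRCh38.p14, running from 250 bases before to 50 bases after the transcription start, were found for all 10 genes, with 2 windows for ECT2. A CHR, searched as TTTGAA or TTCGAA on both strands, was present for 8 of the 10 genes, compared with 16.4% of all 35116 windows and 10.9% of the 10618 windows of expressed genes. CCAAT, on either strand, was also present for 8 genes, compared with 34.6% and 35% of windows. Both motifs occurred for 7 genes, compared with 6.38% and 4.52%. The letters GCGGGAA, part of an E2F site, were found for none, compared with 6.55% and 10.3%. The 100 bases before the start are printed below for the 5 genes at least 2-fold higher with NCD38 on day 30 (KIF4A, PRC1, KIF20A, KIF2C and ANLN) and for the 2 that joined ANLN past 2-fold with NCD38-β2PIPP on day 4 (KIF11 and KIF23), 5′ to 3′ on the strand of the gene, with motif matches in capitals. The stretches are at chrX:70290004-70290103 (plus strand) for KIF4A, chr15:90994536-90994635 (minus strand) for PRC1, chr5:138179012-138179111 (plus strand) for KIF20A, chr1:44739737-44739836 (plus strand) for KIF2C, chr7:36389762-36389861 (plus strand) for ANLN, chr10:92593030-92593129 (plus strand) for KIF11 and chr15:69414249-69414348 (plus strand) for KIF23.
KIF4A: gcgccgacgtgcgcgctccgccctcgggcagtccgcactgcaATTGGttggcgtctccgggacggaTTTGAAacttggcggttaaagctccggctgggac
PRC1: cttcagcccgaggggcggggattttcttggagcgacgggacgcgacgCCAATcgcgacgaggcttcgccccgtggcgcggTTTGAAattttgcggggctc
KIF20A: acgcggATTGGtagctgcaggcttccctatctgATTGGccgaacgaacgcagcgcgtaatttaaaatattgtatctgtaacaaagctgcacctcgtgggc
KIF2C: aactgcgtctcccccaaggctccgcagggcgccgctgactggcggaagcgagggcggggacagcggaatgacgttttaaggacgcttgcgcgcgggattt
ANLN: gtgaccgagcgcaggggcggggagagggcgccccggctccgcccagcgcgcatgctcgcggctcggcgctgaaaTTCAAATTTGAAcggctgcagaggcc
KIF11: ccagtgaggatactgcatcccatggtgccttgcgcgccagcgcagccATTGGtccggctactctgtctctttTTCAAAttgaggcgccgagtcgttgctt
KIF23: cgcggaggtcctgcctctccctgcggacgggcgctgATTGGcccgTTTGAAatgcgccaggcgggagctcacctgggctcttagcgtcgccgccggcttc
KIF4A, PRC1, KIF11 and KIF23 each had 1 CCAAT match followed by 1 CHR match. The CCAAT matches in these 4 promoters began 53 to 64 bases before the start, and the CHR matches began 20 to 55 bases before it. ANLN had 2 adjoining CHR matches, 1 on each strand, and no CCAAT. KIF20A had 2 CCAAT matches, both on the opposite strand, and no CHR in these letters. KIF2C had none of the searched motifs in the window. Thus the 5 genes at least 2-fold higher with NCD38 on day 30 included 2 promoters with both motifs, 1 with CHR alone, 1 with CCAAT alone and 1 with neither.

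The question of the day 30 comparison was how gene expression differs after prolonged exposure to each inhibitor. With NCD38, all 10 genes had a higher FPKM than with DMSO of the same day, each by more than the 95% counting interval of the 2 libraries. Of all expressed genes, 59.0% were higher in this comparison. Counting intervals were computed for the 10 genes alone, so no share of all genes can be set beside those counts. The median log2 ratio of FPKM plus 1 was 0.96 over the 10 genes and 0.06 over all expressed genes. The 5 members KIF4A, ANLN, KIF20A, KIF2C and PRC1 were at least 2-fold higher on this scale, where 1% of expressed genes were, and 0 members were 2-fold lower (0.653% of expressed genes). With NCD38-β2P4 all 10 genes were also higher (62.1% of expressed genes), but by less, with a median of 0.37. In either direction, 0 genes were past 2-fold (0.506% of expressed genes higher and 0.497% lower). With NCD38-β2PIPP, 9 of 10 were higher (46.2% of expressed genes), with a median of 0.32 and 0 past 2-fold (0.810% of expressed genes higher and 0.359% lower). The medians over all genes were 0.06 with NCD38-β2P4 and -0.01 with NCD38-β2PIPP. All 3 inhibitors were read against the same DMSO library.

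Among the motors that act on the spindle and chromosomes, KIF11 (Eg5), which pushes the spindle poles apart, was at 2.92 FPKM in the DMSO library, 5.05 under NCD38, 4.37 under NCD38-β2P4 and 3.79 under NCD38-β2PIPP on day 30. On day 4 it was at 0.685, 0.272, 1.22 and 2.86 FPKM in the same order. All day 30 libraries lay above all day 4 libraries, as they did for 29.5% of expressed genes. The gap was narrow, at 2.92 FPKM with DMSO on day 30 against 2.86 with NCD38-β2PIPP on day 4. Within day 4 the NCD38 library was the lowest and the NCD38-β2PIPP library the highest. KIF11 is on chromosome 10 (chr10:94333862-94415152, plus strand, GRCh37), with 22 exons in a transcript of 5016 nt and a GC content of 39.3%.

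KIF4A, a chromokinesin that binds chromosome arms and limits the length of central spindle microtubules, was at 2.19 FPKM in the DMSO library, 6.86 under NCD38, 3.49 under NCD38-β2P4 and 3 under NCD38-β2PIPP on day 30. On day 4 it was at 9.09, 3.17, 11.5 and 12.7 FPKM. The NCD38 library was thus the highest of day 30 and the lowest of day 4, and the days overlapped only through the NCD38 library of day 4. The FPKM ratio of NCD38 to DMSO was 3.14 on day 30 (95% counting interval 2.64 to 3.73) and 0.349 on day 4 (0.296 to 0.410). KIF4A lies at chrX:69509954-69640736 on the plus strand of GRCh37, with 31 exons, 4388 nt and a GC content of 46.2%.

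KIF2C (MCAK), a kinesin that takes microtubules apart at centromeres and so corrects faulty attachments, had the highest FPKM of the 10 genes in 7 of the 8 libraries, PRC1 being slightly higher with DMSO on day 30. Its values on day 30 were 7.87 FPKM in the DMSO library, 19.0 under NCD38, 11.3 under NCD38-β2P4 and 11.6 under NCD38-β2PIPP. On day 4 they were 43.2, 33.7, 44.2 and 42.7 FPKM, all above day 30. On that day the 2 conjugate libraries differed from DMSO by less than the counting interval, and NCD38 was at 0.780 of DMSO (0.728 to 0.836). KIF2C lies at chr1:45205490-45233439 on the plus strand of GRCh37, with 21 exons, 2862 nt and a GC content of 50%.

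Among the central spindle genes, PRC1, which cross-links antiparallel microtubules, was at 7.91 FPKM in the DMSO library, 17.5 under NCD38, 11 under NCD38-β2P4 and 10.9 under NCD38-β2PIPP on day 30, and at 20.7, 10.2, 26.8 and 30.2 FPKM on day 4. NCD38 was again the highest library of day 30 and the lowest of day 4, with FPKM ratios of 2.21 (1.98 to 2.48) and 0.493 (0.440 to 0.551). KIF20A (MKLP2), which carries the chromosomal passenger complex to the central spindle, followed the same order. It was at 2.29, 6.54, 3.22 and 3.10 FPKM on day 30 and at 7.52, 5.11, 9.55 and 9.82 FPKM on day 4. The ratios of NCD38 to DMSO for KIF20A were 2.85 (2.33 to 3.49) and 0.680 (0.576 to 0.803). PRC1 is at chr15:91509270-91538859 (minus strand, 15 exons, 3072 nt, GC content 46.8%) and KIF20A at chr5:137514408-137523412 (plus strand, 19 exons, 3095 nt, GC content 48.2%), both on GRCh37.

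KIF23 (MKLP1), the motor of the centralspindlin complex, was at 3.76 FPKM in the DMSO library, 7.70 under NCD38, 5.21 under NCD38-β2P4 and 6.01 under NCD38-β2PIPP on day 30, and at 1.73, 1.40, 3.64 and 5.70 FPKM on day 4. The 2 conjugates gave the highest values of day 4, and the days overlapped. KIF14, which binds PRC1 and citron kinase at the midbody, was at 0.859, 2.17, 0.994 and 0.905 FPKM on day 30 and at 0.105, 0.109, 0.195 and 0.334 FPKM on day 4. KIF20B (MPP1), which acts late in cytokinesis, was at 1.31, 2.52, 1.81 and 1.62 FPKM on day 30 and at 0.0868, 0.114, 0.0475 and 0.129 FPKM on day 4. For KIF14 and KIF20B, all day 30 libraries lay above all day 4 libraries, but the day 4 values rest on 10.5 to 34.1 estimated fragments for KIF14 and 3.89 to 11.6 for KIF20B. Among the day 4 ratios to DMSO of these 2 genes, the interval left out 1 only for KIF14 with NCD38-β2PIPP, at 3.19 (1.69 to 5.99). On GRCh37, KIF23 is at chr15:69706585-69740766 (plus strand, 24 exons, 3660 nt, GC content 41.6%), KIF14 at chr1:200520625-200589879 (minus strand, 30 exons, 7291 nt, 38.3%) and KIF20B at chr10:91461347-91534696 (plus strand, 33 exons, 6441 nt, 34.3%).

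At the cortex, ANLN (anillin), a scaffold that links actin, myosin and RhoA in the contractile ring, was at 3.18 FPKM in the DMSO library, 8.74 under NCD38, 4.34 under NCD38-β2P4 and 4.75 under NCD38-β2PIPP on day 30. On day 4 it was at 1.09, 1.29, 1.80 and 4.99 FPKM. NCD38 gave the highest library of day 30 and NCD38-β2PIPP the highest of day 4, with ratios to DMSO of 2.75 (2.39 to 3.16) and 4.57 (3.62 to 5.77). ECT2, the exchange factor that activates RhoA at the equator, was at 2.42, 3.41, 3.05 and 2.03 FPKM on day 30 and at 0.443, 0.528, 0.862 and 1.54 FPKM on day 4. All day 30 libraries of ECT2 lay above all day 4 libraries. ECT2 had the smallest ratio of the 10 genes with NCD38 on day 30, at 1.41 (1.16 to 1.71), and was the only one lower than DMSO with NCD38-β2PIPP on that day, at 0.840, with an interval of 0.685 to 1.03 that held 1. On GRCh37, ANLN is at chr7:36429430-36493400 (plus strand, 24 exons, 4731 nt, GC content 39.8%) and ECT2 at chr3:172468472-172539264 (plus strand, 25 exons, 4136 nt, 36.3%).

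On day 4 the inhibitors separated. With NCD38, 6 of 10 genes were lower than with DMSO and 4 higher, where 31.7% of expressed genes were higher. The 5 that differed by more than the counting interval (KIF11, KIF20A, KIF2C, KIF4A and PRC1) were all lower. The median log2 ratio was -0.27 (-0.21 over all expressed genes), and it turned to 0.05 when libraries were rescaled by the median ratio and to 0.13 when the trend over transcript GC content was subtracted. KIF4A, at -1.27, was the only member at least 2-fold lower, as were 4.54% of expressed genes, and 0 members were 2-fold higher (0.874%). With NCD38-β2P4, 9 of 10 genes were higher (65.0% of expressed genes), 7 of them by more than the counting interval. Their median was 0.33 (0.09 over all genes), and 0 passed 2-fold (1.10% of expressed genes higher and 0.810% lower). KIF23 had the largest log2 ratio with this compound, 0.76. With the GC trend subtracted the member median was 0.07, 7 of 10 were higher, and KIF23 was at 0.39. On day 30 the same step left a median of 0.23 with NCD38-β2P4 and turned KIF14 to -0.12.

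With NCD38-β2PIPP on day 4, 9 of 10 genes were higher (63.6% of expressed genes), 8 by more than the counting interval. ANLN, KIF23 and KIF11 were at least 2-fold higher, with log2 ratios of 1.52, 1.29 and 1.19, as were 10.3% of expressed genes, and 0 were 2-fold lower (0.838%). The median was 0.48 over the 10 genes and 0.17 over all genes. Over expressed genes these ratios fell with the GC content of the transcripts (Spearman's rho -0.69), whereas rho over the 10 genes was -0.15. The median ratio of expressed genes with NCD38-β2PIPP on day 4 was 0.78 in the lowest of 5 equal classes of GC content and -0.11 in the highest. With the trend over GC content subtracted, the member median was 0.12, the ratios of ANLN, KIF23 and KIF11 were 0.71, 0.52 and 0.39, and 0 members stayed past 2-fold. This step used FPKM plus 1, which understates changes of low genes. With no constant added, the log2 ratios of ANLN, KIF23 and KIF11 were 2.19, 1.72 and 2.06, and the subtraction was not run on that scale. KIF14, with an FPKM ratio of 3.19 (1.69 to 5.99), went to -0.56 and KIF20B to -0.62. Both lay below the expression minimum but count in the member median. With NCD38 on day 4, 5 members were higher and 5 lower after the same step. KIF4A was at -0.68 and PRC1 at -0.45, whereas KIF11 (-0.02), KIF20A (-0.01) and KIF2C (-0.01) were near 0 and KIF23 turned to 0.35. With NCD38 on day 30 the trend over expressed genes was shallow, with medians of 0.15 and 0.002 in the same classes. When it was subtracted, KIF4A (1.24), KIF2C (1.15), KIF20A (1.14), ANLN (1.11) and PRC1 (0.99) changed little. Spearman's rho between GC content and the NCD38 ratio of day 30 was -0.18 over expressed genes and 0.73 over the 10 genes. On day 4 rho with NCD38 was 0.59 over expressed genes and -0.65 over the 10 genes.

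**Figure D1:**
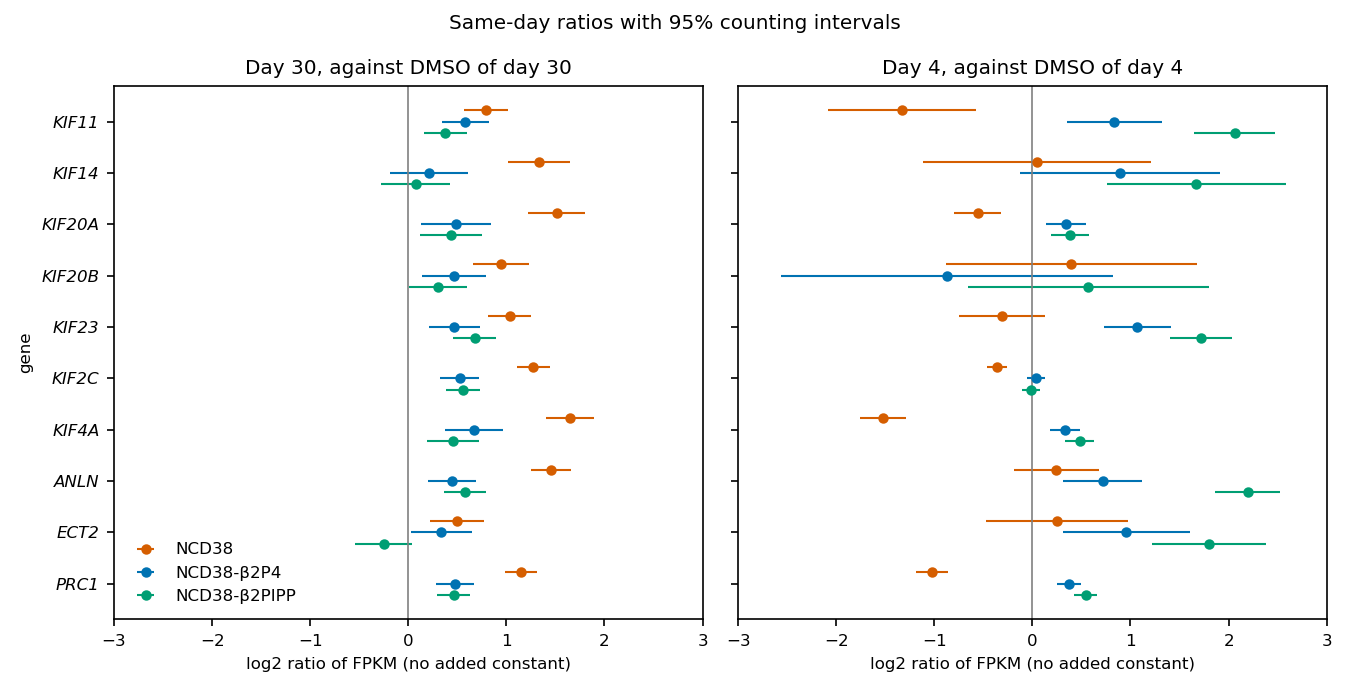
Log2 ratio of FPKM to DMSO of the same day, with no constant added (horizontal axis), for each gene (vertical axis) on day 30 (left) and day 4 (right), with bars for the 95% counting interval of 1 library against 1. With NCD38, KIF4A was at 1.65 on day 30 and -1.52 on day 4, and the bars of KIF14 and KIF20B on day 4 are the widest.

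The 3 compounds share the LSD1 inhibitor and differ in the absence or the type of polyamide. On day 30, NCD38 gave higher FPKM than NCD38-β2PIPP for 10 of 10 genes and higher than NCD38-β2P4 for 8 of 10, in each case by more than the counting interval. The median log2 differences of FPKM plus 1 were 0.65 against NCD38-β2P4 (-0.01 over all genes) and 0.65 against NCD38-β2PIPP (0.07 over all genes). The 2 conjugates differed from each other by more than the counting interval for ECT2 alone on that day, with NCD38-β2PIPP at 0.665 of NCD38-β2P4 (0.538 to 0.822). On day 4 the order was turned. NCD38 was lower than NCD38-β2P4 for 8 genes and lower than NCD38-β2PIPP for 9 by more than the counting interval. The medians were -0.59 and -1.10, where all genes had medians of -0.30 and -0.45. By sign alone, NCD38 was lower than NCD38-β2P4 for every gene except KIF20B and lower than NCD38-β2PIPP for every gene. With the GC trend subtracted from each ratio, and again by sign, NCD38 was lower than NCD38-β2P4 for 5 of 10 genes on day 4. It was lower than NCD38-β2PIPP for 6 of 10, and the median differences were -0.01 and -0.14. On day 30 NCD38 was higher than both conjugates for 10 of 10 genes after subtraction. KIF11, KIF20A, KIF23, KIF4A and PRC1 were lower with NCD38 than with both conjugates on day 4 after this step. NCD38-β2PIPP exceeded NCD38-β2P4 by more than the counting interval for KIF11, KIF23, ANLN, ECT2 and PRC1, with FPKM ratios of 1.13 for PRC1 to 2.78 for ANLN.

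A test across libraries used limma on log2 FPKM plus 1 with terms for treatment and day, so that the 2 days of a treatment stood as its replicates. None of the 8 expressed members was called in any contrast of a treatment with DMSO or of 2 compounds, after Benjamini-Hochberg adjustment over 10865 genes, and none had an unadjusted p below 0.05. The same contrasts called 4 genes for NCD38 (0.0368% of 10865), 2 for NCD38-β2P4 (0.0184%), 2 for NCD38-β2PIPP (0.0184%) and 3 for the mean of the 3 inhibitors (0.0276%), and 145, 32, 62 and 37 genes had an unadjusted p below 0.05. Between compounds, 1 gene was called for NCD38-β2P4 against NCD38 (0.00920%), 2 for NCD38-β2PIPP against NCD38 (0.0184%) and 3 between the conjugates (0.0276%). Differences that turn with the day enter the spread of this model. ANLN had a difference of 0.68 for NCD38 against DMSO (95% confidence interval -0.57 to 1.92) and of 0.99 for NCD38-β2PIPP against DMSO (-0.26 to 2.23). KIF4A had a difference of 0.01 for NCD38 against DMSO (-1.73 to 1.75).

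For the compound pairs, 3 pairs were compared over the 8 genes, and the intervals were wide. KIF11 had a difference of 0.63 between NCD38-β2PIPP and NCD38 (-0.51 to 1.77), KIF4A had 0.39 between NCD38-β2P4 and NCD38 (-1.35 to 2.13), and ANLN had 0.60 between the conjugates (-0.64 to 1.85). With these intervals, differences of more than 2-fold in either direction could not be told from none for KIF4A. Whether the mean inhibitor effect differed between day 30 and day 4 was tested with an interaction term. The 3 compounds stood as replicates of 1 inhibitor group in this fit and DMSO was 1 library per day, so the spread came from the compounds, which differed in direction on day 4. The interaction was called for 0 of the 8 members and for 25 of 10865 genes (0.230%, with 0.184% higher and 0.0460% lower), and 0 members had an unadjusted p below 0.05. The estimate was 0.88 for KIF4A (-1.63 to 3.40) and 0.83 for KIF2C (-0.32 to 1.98).

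Between the days, the 10 genes fell into separate sets. KIF11, KIF14, KIF20B and ECT2 had 4 of 4 day 30 libraries above all day 4 libraries, as did 29.5% of expressed genes. For KIF11 the nearest libraries of the 2 days were at 2.92 and 2.86 FPKM. KIF2C had 4 of 4 below, as did 33.1%. In limma, on the log2 scale KIF11 rose by 1.26 (SE 0.32, adjusted p = 0.0184) and ECT2 by 1.04 (SE 0.24, adjusted p = 0.0136) from day 4 to day 30, and KIF2C was lower by a log2 difference of -1.70 (SE 0.26, adjusted p = 0.00304). Of expressed genes, 61.9% were called, 30.2% higher and 31.7% lower on day 30. The other 5 expressed members were not called, with differences of 0.99 for ANLN, 0.79 for KIF23, -0.95 for KIF20A, -0.9998 for KIF4A and -0.79 for PRC1 and adjusted p of 0.0536 to 0.131. KIF11 and ECT2 were no longer called without any 1 of the DMSO or NCD38-β2P4 libraries of either day, with adjusted p of 0.0604 to 0.0736. Without either NCD38 library the differences were -1.36 for KIF20A, -1.64 for KIF4A and -1.29 for PRC1. Without either NCD38-β2PIPP library the difference of ANLN was 1.34. Leaving out 1 library of a treatment takes that treatment out of the day estimate in this fit. The 2 omissions of a treatment thus gave the same difference and are not separate checks. The 2 DMSO libraries alone gave 6 genes higher and 4 lower on day 30, all by more than the counting interval, with log2 differences of FPKM plus 1 from -2.32 for KIF2C to 1.24 for ECT2. At least 2-fold differences between the DMSO libraries were present for 24.1% of expressed genes upward and 17.3% downward.

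The direction followed the base composition of the transcripts. The 6 genes with a higher day 30 mean had GC contents of 34.3% to 41.6%, and the 4 with a higher day 4 mean had 46.2% to 50%. Spearman's rho between GC content and the day difference was -0.90 over the 10 genes and -0.68 over 10080 expressed genes with a transcript, as a description over genes measured in the same libraries. The median day difference was 1.34 in the lowest class of GC content and -0.74 in the highest. With the GC trend subtracted, in a limma fit added after the data had been seen, KIF11 was at 0.06 (adjusted p = 0.733), ECT2 turned to -0.55 (adjusted p = 0.00865), and KIF20A, KIF2C, KIF4A, PRC1 and ECT2 were called lower on day 30. In that fit no member was called higher. Over all genes the same fit called 2854 of 10080 higher and 2802 lower. CD68 also moved with the day, as given above, and its part in the result was not tested. The length of treatment and any other difference between the libraries of the 2 days cannot be told apart.

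**Figure D2:**
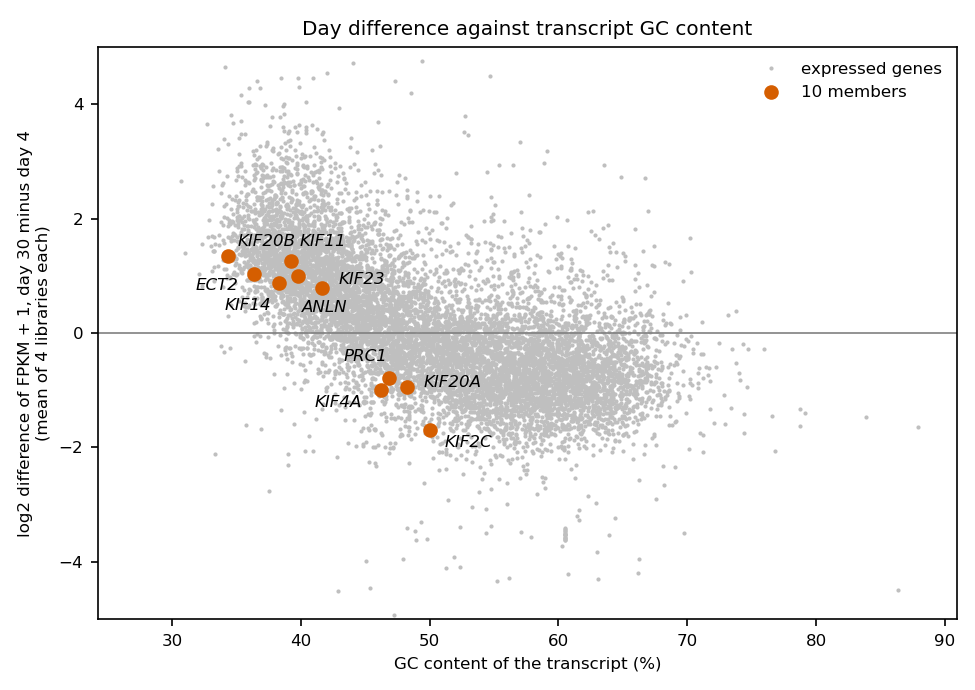
Log2 difference of FPKM plus 1 between the means of the 4 day 30 and the 4 day 4 libraries (vertical axis) against the GC content of the transcript in percent (horizontal axis), for expressed genes (gray points) and the 10 members (orange points). The members follow the falling band of all genes, and 17 genes with a difference beyond 5 in either direction lie outside the plot.

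Other genes of cell division were compared by their counts. Of all expressed genes, 59.0% were higher with NCD38 on day 30 and 1% were at least 2-fold higher. Of 8 central spindle, abscission and chromosomal passenger genes, 8 were higher in this comparison and 3 were at least 2-fold higher. Their median log2 ratio was 0.83 (0.06 over all genes). PLK1, a mitotic kinase needed to bring ECT2 to the central spindle, had 1.66, CDCA8 (borealin), a subunit of the chromosomal passenger complex, had 1.10, and CIT, the citron kinase that binds KIF14, had the lowest, 0.26. RACGAP1, the partner of KIF23 in centralspindlin, had 0.40. Of 6 other mitotic kinesins, 4 were expressed and 4 were higher, with a median of 0.63. KIFC1, a minus-end motor that bundles spindle microtubules, had 0.94, and KIF22, a chromokinesin, had 0.17. Of 15 contractile ring and ESCRT genes, 14 were expressed and 14 were higher, with a smaller median of 0.26, led by the formin DIAPH3 with 0.75.

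Kinesins that carry cargo in interphase and S phase genes served as further lists. Of 23 interphase kinesin genes, 16 were expressed and 10 of these were higher with NCD38 on day 30 (59.0% of all expressed genes). The list median was 0.11, from -0.26 for KIF3A to 0.29 for KIF5B. Of 18 S phase genes, 7 were higher, with a median of -0.12, from -0.49 for CDC6, a replication licensing factor, to 0.39 for RRM1, a subunit of ribonucleotide reductase. Of 15 regulators of mitotic transcription, 14 were expressed and 9 were higher, with a median of 0.05. FOXM1, a transcription factor of G2 and M genes, was the highest of them, with 0.75. On day 4, the medians with NCD38 were -0.28 for the central spindle list, 0.01 for the other mitotic kinesins, -0.16 for the contractile ring list, -0.18 for the interphase kinesins, -0.53 for S phase genes and 0.01 for the regulators (-0.21 over all genes). PLK1 was higher than DMSO on both days with NCD38 (0.43 on day 4), whereas KIF4A, PRC1 and KIF20A were higher on day 30 and lower on day 4.

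In limma, no gene of these lists was called for any inhibitor against DMSO. From day 30 against day 4, the central spindle list had 1 gene called higher (CEP55, 1.55, adjusted p = 0.0157) and 6 lower of 8, among them PLK1 at -3.48 (adjusted p = 0.000413). The other mitotic kinesins had 1 higher (KIF15, 1.19, adjusted p = 0.00366) and 3 lower of 4. The S phase list had 2 higher and 12 lower of 18, the contractile ring list 7 higher and 5 lower of 14, the interphase kinesins 5 and 5 of 16, and the regulators 2 and 6 of 14. Over all expressed genes, as given above, 30.2% were called higher and 31.7% lower.

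Among the genes whose 6 same-day ratios were nearest to the median member profile were PCDHB8, CCNB2, CENPF and ADAMTSL1, with root mean square differences in log2 of 0.13, 0.14, 0.16 and 0.16 over the 6 ratios. CCNB2, a mitotic cyclin, had day 30 ratios of 1.07 for NCD38, 0.36 for NCD38-β2P4 and 0.34 for NCD38-β2PIPP, and of -0.56, 0.26 and 0.38 on day 4. CENPF, a kinetochore protein, had 1.22, 0.29 and 0.45 on day 30 and -0.10, 0.14 and 0.52 on day 4. PCDHB8, the nearest gene, had 0.76, 0.34 and 0.48 on day 30 and -0.36, 0.32 and 0.64 on day 4. ADAMTSL1 had 0.64, 0.35 and 0.35 on day 30 and -0.38, 0.38 and 0.30 on day 4. The 3 ratios of a day share 1 DMSO library.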

How the data were processed

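RNA-seq libraries were made by the authors with a stranded mRNA kit, 1 for each of 8 conditions. The methods of the study name TopHat and Cufflinks, and the submitters' processing notes name HISAT2 and Cufflinks with hg19. The deposited FPKM values come from the authors' Cufflinks run, and no replicates were pooled. Of 25594 entries, 90 with a repeated symbol were left out. Columns holding no sample numbered 0. ChIP-seq samples of the series were not analysed here. FPKM keep no fragment counts, so the depth was estimated from the lowest values and the transcript lengths of GENCODE 44 on GRCh37, and counting intervals (95%) from these estimates cover counting error only.

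Genes with a mean of at least 1 FPKM were called expressed, and 10080 of 10865 (92.8%) matched a transcript. Ratios to DMSO of the same day were log2 of FPKM plus 1, which understates changes of low genes, with a limit of 2-fold. limma 3.58.1 in R 4.3.3 fitted treatment and day, and a second fit held any inhibitor, day and their interaction; p-values were adjusted over all expressed genes with a limit of 0.05 and measure only the spread between these libraries, which the labels do not call separate cultures. Both steps were tested on simulated data. The 10 genes, the other lists and the promoter motifs were chosen with earlier results of these data known. Named genes were all 10 members, up to 2 genes at either end of each list, and the 5 expressed genes nearest to the median member over the 6 same-day ratios, of which 1 is not reported here; the list genes called between days that are named were chosen after their values were seen. Alternatives covered the pseudocount (0.1 and 0.01), rescaling, the filter, the DMSO library of the other day, GC content, the block, the variance trend and each library left out. Promoters were RefSeq sequences on GRCh38.p14. Python 3.11.15, pandas 2.3.3 and matplotlib 3.10.9 were used.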

Additional observations from a re-analysis of the deposited data

Results flagged for a closer look

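With NCD38, 6 of the 10 genes had a higher FPKM than DMSO on day 30 and a lower FPKM on day 4. Of all expressed genes, 59.0% were higher on day 30 and 31.7% were higher on day 4. The share of expressed genes with both changes was not computed, so the pattern cannot be read as particular to these genes. The log2 ratio of day 30 minus that of day 4 was 2.58 for KIF4A, 2.01 for PRC1, 1.68 for KIF20A, 1.52 for KIF2C, 1.06 for KIF23 and 1.03 for KIF11. With the GC trend subtracted, KIF4A (-0.68) and PRC1 (-0.45) remained clearly lower on day 4, KIF11 (-0.02), KIF20A (-0.01) and KIF2C (-0.01) were near 0 and KIF23 was at 0.35, and rescaling by the median ratio put KIF2C at 0.04 and KIF23 at 0.06. With NCD38-β2P4 the ratio of KIF20B was higher on day 30 and lower on day 4, with a difference of 0.33 that rests on 3.89 estimated fragments in the inhibitor library of day 4. With NCD38-β2PIPP, KIF2C was higher on day 30 and just under DMSO on day 4 (difference 0.52), whereas ECT2 was lower on day 30 and higher on day 4 (difference -0.99). With 1 library on either side, these differences for single inhibitors were not tested.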

How the results depend on the processing

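No paired analysis was possible because each condition was 1 library with no replicate number, and the day served as the block. Signs were compared at 2 decimals, with 0.00 on either side not counted as a change. Of 60 same-day ratios, none changed sign in this way with either pseudocount or with upper quartile rescaling. With median ratio rescaling 3 did, with the GC trend subtracted 6 and with DMSO of the opposite day 30. Not counted was KIF2C with NCD38-β2P4 on day 4, which fell just below 0 with upper quartile rescaling. Also not counted were KIF4A with NCD38-β2PIPP on day 4 (-0.002 with the GC trend subtracted) and KIF14 with NCD38 on day 4. The KIF14 ratio went from 0.005 to -0.75 with DMSO of the opposite day. With a pseudocount of 0.01 the member median with NCD38 on day 30 was 1.21. On day 4, pseudocounts of 0.1 and 0.01 gave 3 members at least 2-fold lower with NCD38, 1 higher with NCD38-β2P4, and 5 higher with NCD38-β2PIPP at medians of 0.81 and 1.06. Rescaling by the median ratio or subtracting the GC trend left 0 members at least 2-fold lower with NCD38 on day 4, where the member median turned to 0.05 and 0.13, and the GC trend left a median of 0.12 and 0 members higher with NCD38-β2PIPP. When the ratio was taken to DMSO of the opposite day, which also changes the day, medians on day 30 were 1.57 with NCD38 (1 member at least 2-fold lower), 1.02 with NCD38-β2P4 and 0.93 with NCD38-β2PIPP (5 higher and 3 lower each). On day 4 the medians were -0.81 with NCD38 (1 higher, 3 lower) and -0.31 with NCD38-β2P4 (4 higher, 1 lower). With NCD38-β2PIPP the median was 0.51 (4 higher, 1 lower). Of expressed genes on day 4, 2000 were higher and 3734 lower with NCD38, 1906 and 2033 with NCD38-β2P4, and 1929 and 1347 with NCD38-β2PIPP. Among ratios past 2-fold with DMSO of the same day, those that turned were KIF20A (-0.18), KIF2C (-1.14), KIF4A (-0.36) and PRC1 (-0.23) with NCD38 on day 30, KIF4A with NCD38 on day 4 (0.39) and KIF11 with NCD38-β2PIPP on day 4 (-0.02).

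Members called between days numbered 4 higher and 2 lower after rescaling (3603 and 3339 of 10865 genes). With all genes above 0, 4 were higher (4268 of 17976 genes). With at least 1 FPKM in all libraries, 6 members were tested, with 1 higher and 2 lower (1632 and 3200 of 7915 genes). Without the block 2 were lower (3779 of 10865 genes). With the GC trend subtracted 0 were higher and 5 lower (2854 and 2802 of 10080 genes), and ECT2 turned to -0.55. Leaving out 1 library gave 0 to 3 higher and 1 to 4 lower. The cause of these moves was not tested. For treatment contrasts 0 members were called under every alternative run. Without the NCD38 library of day 4, the NCD38 group was the day 30 library alone, assumed to vary like the other groups. In that limma fit 6 of 8 members and 807 of 10865 genes had an unadjusted p below 0.05 for NCD38 against DMSO, with adjusted p of 0.534 to 0.751 for the members, and without that of day 30 it was 2 members and 2656 genes. Over all genes, counts past 2-fold with DMSO of the same day ranged from 70 to 211 higher and 57 to 157 lower with NCD38, 33 to 104 and 39 to 94 with NCD38-β2P4, and 56 to 132 and 26 to 81 with NCD38-β2PIPP on day 30, and from 68 to 193 and 63 to 1883, 65 to 670 and 56 to 142, and 98 to 2455 and 86 to 114 on day 4. Calls in limma ranged from 0 to 27 for treatment contrasts, 4567 to 7827 for the days and 0 to 69 for the interaction. Depth limits KIF14 and KIF20B most, and no alternative supplies the missing replicates.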
